A study of Mus musculus with 6 samples.

Results

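The S100 genes examined here encode small calcium-binding proteins, and 7 of them were chosen as members by name: S100a1, S100a4, S100a6, S100a10, S100a11, S100a13 and S100a16. A probe set counted as a measurement of a member when the platform annotation named that gene alone. This gave 10 probe sets for 6 members, of 34945 that name 1 gene and 45101 on the array. The 34945 name 18193 genes in all. S100a11 had none, because its 1 probe set is annotated to 3 genes, and no level of S100a11 is given.

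Expression was measured in mouse embryonic stem cells of the R1 line, an established line from a mouse blastocyst, harvested undifferentiated, with 3 arrays per group. In the Pcl2 shRNA group the cells carried a stably integrated short hairpin RNA against Pcl2, the Polycomb-like protein encoded by Mtf2, and all 3 samples came from 1 clone. In the mismatch control group the cells stably carried a hairpin with a mismatch sequence. Both groups share the R1 background, the stable transfection and a medium that contains leukaemia inhibitory factor, a cytokine that keeps such cells undifferentiated. The labels call the samples of a group biological replicates without saying what separates them, so a p-value here speaks only to the spread among these arrays. The hairpin and the clone that carries it cannot be told apart.

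S100 proteins are built from EF-hands, helix-loop-helix folds that hold a calcium ion, and act mostly as dimers. Binding of calcium exposes a surface that docks onto partner proteins, among them annexins, myosin heavy chains and other cytoskeletal proteins. They have no enzymatic activity of their own, and their genes are transcribed in patterns that differ between cell types, with S100a4 and S100a6 known for high levels in fibroblasts and other motile cells.

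In the RefSeq annotation of GRCm38.p6 all 7 genes lie on chromosome 3, in the order S100a1, S100a13, S100a16, S100a4, S100a6, S100a11 and S100a10. S100a11 and S100a10 are separated from S100a6 by 87 annotated genes, many of them genes of skin differentiation. The starts of S100a1 and S100a13 face away from each other, and their promoter windows, each from 250 bases before to 50 bases after the start, share 204 bases. The sequences of 3 windows are shown because S100a6 fell, S100a4 differed more between samples of a group than between groups, and S100a13 shares its window with S100a1. They are from a RefSeq promoter table that held 6 of the 7 members, all but S100a10, and are printed 5′ to 3′ on the gene's strand, which is the plus strand for all 3. The windows are chr3:90612644-90612943 for S100a6, chr3:90603520-90603819 for S100a4 and chr3:90514185-90514484 for S100a13. Capitals mark a CACGTG match in S100a6, a TATAAA match in S100a4 and, in S100a13, the stretch that is also in the window of S100a1.
S100a6: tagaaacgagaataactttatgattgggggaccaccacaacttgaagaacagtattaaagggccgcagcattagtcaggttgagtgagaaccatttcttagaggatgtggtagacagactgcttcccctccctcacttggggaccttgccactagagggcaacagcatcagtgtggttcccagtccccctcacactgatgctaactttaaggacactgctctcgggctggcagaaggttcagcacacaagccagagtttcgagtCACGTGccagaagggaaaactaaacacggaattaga
S100a4: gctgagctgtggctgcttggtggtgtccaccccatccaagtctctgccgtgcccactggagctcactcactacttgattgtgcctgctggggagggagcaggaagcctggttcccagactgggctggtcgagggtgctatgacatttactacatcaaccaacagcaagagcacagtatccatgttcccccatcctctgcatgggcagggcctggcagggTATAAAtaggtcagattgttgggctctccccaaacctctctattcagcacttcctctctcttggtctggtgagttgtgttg
S100a13: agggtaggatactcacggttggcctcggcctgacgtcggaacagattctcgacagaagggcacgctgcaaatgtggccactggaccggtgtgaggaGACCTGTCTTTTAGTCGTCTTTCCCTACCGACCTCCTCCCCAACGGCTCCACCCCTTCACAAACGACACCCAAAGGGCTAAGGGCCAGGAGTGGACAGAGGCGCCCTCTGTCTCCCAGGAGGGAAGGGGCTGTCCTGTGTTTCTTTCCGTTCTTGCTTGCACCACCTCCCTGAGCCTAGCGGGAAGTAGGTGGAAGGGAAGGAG

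The windows were searched on both strands for TATAAA (the TATA box), TGANTCA (AP-1), GGGCGG (the GC box), GGAATG (TEAD) and CACGTG (an E-box that is its own reverse complement). The TATAAA of S100a4 began at -31, counting the start of transcription as 0, and 13.6% of the 32851 RefSeq promoter windows held this motif. The CACGTG of S100a6 began at 14, inside the transcribed part, and 7.15% of windows held it. The S100a11 window, with 15 CpG dinucleotides, held the most matches of the members' windows, with 1 CACGTG, 2 TGANTCA and 3 GGGCGG. None of the 5 motifs was found in the windows of S100a1 and S100a13. Of the 2 windows of S100a16, the second held 1 TGANTCA and 1 GGGCGG, motifs present in 7.81% and 35.7% of windows, and neither held GGAATG, which 14.7% of windows hold. The S100a4 window held 2 CpG dinucleotides, the S100a6 window 6 and the S100a13 window 14, and the median over all windows was 7.

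The library labels were checked on the targeted gene. The brightest probe set of Mtf2 had signals of 1048, 1167 and 869.6 in the Pcl2 shRNA samples. In the mismatch control samples it had 1951, 1513 and 1704 (log2 fold change -0.74, SE 0.17, limma adjusted p = 0.0157). The Mtf2 call was lost without Pcl2 shRNA sample 3 (limma adjusted p = 0.0574). Without mismatch control sample 1 another probe set was the brightest, and the call was lost (-0.75, limma adjusted p = 0.0519). Keeping the first probe set without that sample also lost the call (-0.65, limma adjusted p = 0.0594). Of 13095 genes tested 1652 passed the threshold of an adjusted p below 0.05, or 12.6%, with 8.16% lower and 4.46% higher in the Pcl2 shRNA cells. None of the 10 embryonic stem cell markers listed was at background on all arrays, and 6 of them rose. Signals below are MAS5 signals, a linear measure of brightness per probe set that was scaled to a common mean on each array. They are compared between samples of 1 probe set. Across probe sets, brightness served for the filter on low signals, for the comparison with background and to pick the one that represents a gene. It also served to sum the signals of a marker list on each array. Fold changes are log2 values of Pcl2 shRNA over mismatch control after adding 7 to each signal, which understates changes of dim probe sets.

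Of the 6 measured members, S100a6 and S100a10 fell in the Pcl2 shRNA cells, none rose, and S100a13, S100a1, S100a4 and S100a16 did not pass the test. A share of 8.16% of all genes tested was called lower. The median log2 fold change was -1.06 over the 6 members and 0.02 over all genes tested. The value was below 0 for 5 of the 6, as it was for 47.6% of all genes. All 6 passed the filter on low signals. In cultures measured in bulk, fewer cells of a type and less RNA per cell cannot be told apart. The samples of both groups are numbered 1 to 3 in the labels, and samples with the same number deviated together, so the fit was repeated with the number as a block. With it 4 members were called lower (S100a6, S100a10, S100a13 and S100a1), where 13.8% of all genes were called lower and 23.8% in either direction.

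**Figure D1:**
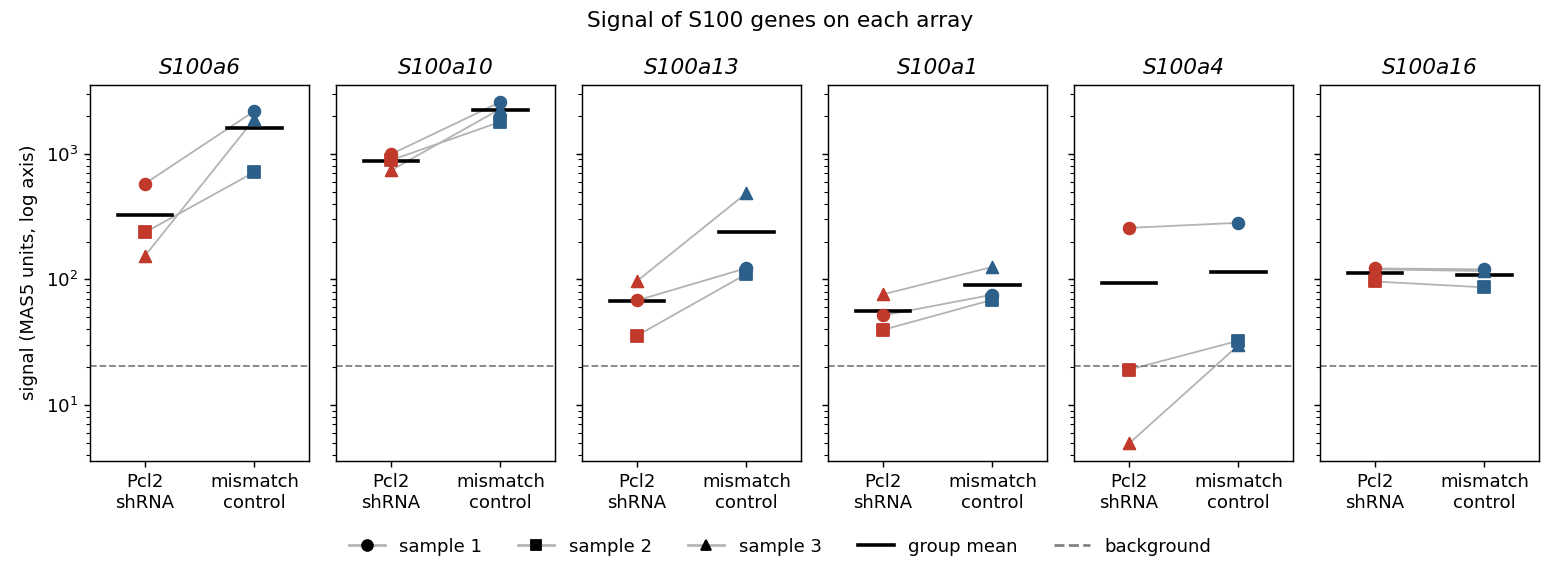
MAS5 signal (log axis) of the probe set that represents each of the 6 measured S100 genes on the 3 Pcl2 shRNA arrays (red, left) and the 3 mismatch control arrays (blue, right). Symbols give the sample number, grey lines join samples with the same number, black bars are group means and the dashed line is background at 20.3. The groups are separate for S100a6, S100a10 and S100a13 and overlap for S100a1, S100a4 and S100a16, and both samples numbered 1 stand high for S100a4.

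S100a6, also called calcyclin, binds annexins and the protein CacyBP. Its 1 probe set (1421375_a_at) had signals of 579, 236 and 154 in Pcl2 shRNA samples 1 to 3, against 2188, 715 and 1898 in mismatch control samples 1 to 3. Every Pcl2 shRNA sample lay below every control sample, with mismatch control sample 2 the nearest to the other group. The mean was 323 ± 225 in the Pcl2 shRNA cells and 1600.0 ± 780.2 in the mismatch control cells (SD, n = 3 each), so that the Pcl2 shRNA mean was 20.2% of the control mean. The log2 fold change was -2.35 (SE 0.49, limma adjusted p = 0.0108), with a 95% confidence interval from -3.43 to -1.26. Between samples of the same number the difference was -1.91, -1.57 and -3.56. The exact two-sided permutation p was 0.1, the smallest that 3 against 3 arrays allow. Leaving out any 1 array kept the call, with a fold change between -2.87 and -1.94.

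S100a10, also called p11, is the S100 protein that has lost calcium binding and is held in its active shape at all times, and it forms a tetramer with annexin A2. Its representative probe set (1416762_at) gave 991, 888 and 738 in the Pcl2 shRNA samples, against 2582, 1797 and 2276 in the mismatch control samples. The groups did not overlap, and the samples within a group lay closer together than for S100a6. The mean was 872 ± 127 in the Pcl2 shRNA cells and 2218 ± 396 in the mismatch control cells (SD, n = 3 each), which put the Pcl2 shRNA mean at 39.3% of the control. The log2 fold change was -1.33 (SE 0.18, limma adjusted p = 0.0012), with a 95% confidence interval from -1.74 to -0.93. Samples of the same number differed by -1.38, -1.01 and -1.62.

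S100a10 was the only member with 3 probe sets, which share a target and are not replicates of each other. The probe set 1456642_x_at, whose suffix marks probes that may bind other transcripts, gave 1144, 997 and 695 in the Pcl2 shRNA samples, against 1401 to 2438 in the mismatch control samples. The dim probe set 1439348_at gave 36.6, 34.2 and 21.4 in the Pcl2 shRNA samples, against 60.2, 49.4 and 101 in the mismatch control samples. In all 3 the groups were separate, with an exact two-sided permutation p of 0.1 for each. With every probe set as a feature of its own, where 6.83% of 23186 probe sets were called lower, 1456642_x_at fell (log2 fold change -1.05, SE 0.24, limma adjusted p = 0.0223). In that fit 1439348_at had -1.004 (SE 0.30, limma adjusted p = 0.0592) and did not pass, and with the sample number as a block it did (0.0468). Without mismatch control sample 1 the probe set 1456642_x_at became the brighter and the S100a10 call was lost (-0.99, limma adjusted p = 0.0551), while 1416762_at kept its call without that sample (-1.22, limma adjusted p = 0.00578).

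S100a13 takes part in the export of FGF1 and interleukin 1 alpha, proteins that leave the cell without a signal peptide. Its probe set (1418704_at) gave 67.9, 35.6 and 96.9 in the Pcl2 shRNA samples, against 123, 110.3 and 486 in the mismatch control samples. The groups did not overlap, and mismatch control sample 3 stood well above the other two control samples. Groups were separate in the lower direction for 3 of the 6 members (S100a6, S100a10 and S100a13), and for 16.7% of all genes tested. The mean was 66.8 ± 30.7 in the Pcl2 shRNA cells and 239.6 ± 213 in the mismatch control cells (SD, n = 3 each). The log2 fold change of -1.50 (SE 0.51) did not pass (limma adjusted p = 0.0857), with a 95% confidence interval from -2.63 to -0.37. Samples of the same number differed by -0.79, -1.46 and -2.24, and with the number as a block S100a13 fell (SE 0.25, limma adjusted p = 0.00228). Without mismatch control sample 3 the value was -0.83 (limma adjusted p = 0.171).

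S100a1, best known from heart and skeletal muscle where it binds calcium channels and pumps of the sarcoplasmic reticulum, is the divergent neighbour of S100a13. Its brighter probe set (1419814_s_at) gave 51.6, 39.6 and 76.0 in the Pcl2 shRNA samples, against 75.4, 68.8 and 126 in the mismatch control samples. The groups overlapped, because Pcl2 shRNA sample 3 lay just above mismatch control samples 1 and 2. Sample 3 was the highest of its group and sample 2 the lowest, both in the Pcl2 shRNA cells and in the mismatch control cells, as for S100a13 in both groups. The log2 fold change of -0.62 (SE 0.29) did not pass (limma adjusted p = 0.207), with a 95% confidence interval from -1.27 to 0.02. The differences between samples of the same number were close to each other at -0.49, -0.70 and -0.68, and with the number as a block S100a1 fell (SE 0.18, limma adjusted p = 0.0327). The suffix of 1419814_s_at marks probes that may bind other transcripts, and S100a1 was not measured in the setting without such probe sets. The other probe set (1417421_at) was too dim to be tested and lay at or below background, a signal of 20.3, on 5 of 6 arrays.

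**Figure D2:**
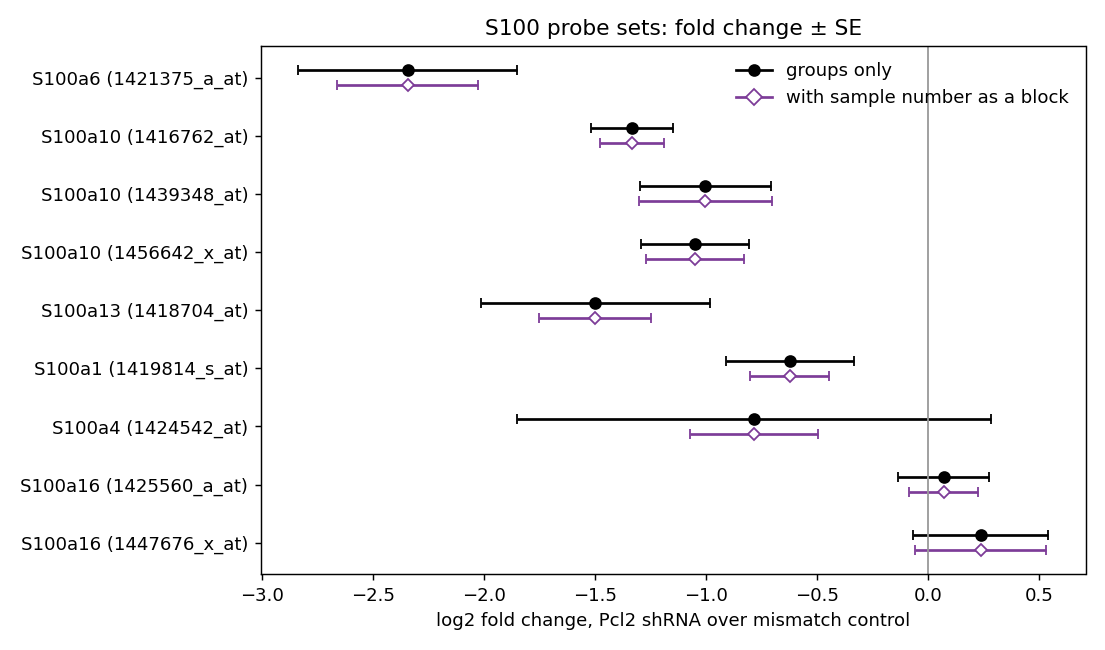
Log2 fold change of Pcl2 shRNA over mismatch control with its standard error for the 9 tested S100 probe sets, from the fit with every probe set as a feature. Black circles are the fit on the groups alone and open purple diamonds the fit with the sample number as a block. The estimate is the same in both fits and the error is smaller with the block for all but 1439348_at, most of all for S100a4.

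S100a4, also called metastasin or fibroblast-specific protein, binds the heavy chain of non-muscle myosin IIA. Its probe set (1424542_at) gave 257, 19.1 and 4.93 in the Pcl2 shRNA samples, against 282, 32.4 and 29.9 in the mismatch control samples. The sample numbered 1 was far above the other two in both groups, and 2 of the 3 Pcl2 shRNA samples were at or below background. The mean was 93.7 ± 142 in the Pcl2 shRNA cells and 115 ± 145 in the mismatch control cells (SD, n = 3 each), with an SD larger than the mean in both groups. The log2 fold change of -0.78 (SE 1.06) did not pass (limma adjusted p = 0.705), and its 95% confidence interval ran from -3.14 to 1.57. Within sample numbers the difference was -0.13, -0.60 and -1.63, and with the number as a block the SE was 0.28 and the adjusted p 0.0759, still short of the threshold. The direction rested on single arrays: the value was 0.15 without Pcl2 shRNA sample 3 and 0.19 without mismatch control sample 1, and -2.09 without Pcl2 shRNA sample 1. With signals floored at background it was -0.37.

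S100a16, a widely expressed member of the family, gave 122, 96.1 and 120.2 in the Pcl2 shRNA samples, against 120.1, 86.3 and 116 in the mismatch control samples (1425560_a_at). Sample 2 was the lowest in both groups, and the groups lay on top of each other. The mean was 113 ± 14.5 in the Pcl2 shRNA cells and 108 ± 18.5 in the mismatch control cells (SD, n = 3 each). The log2 fold change was 0.07 (SE 0.21, limma adjusted p = 0.873), with a 95% confidence interval from -0.39 to 0.53. Its other probe set (1447676_x_at) gave 67.6, 44.2 and 37.1 in the Pcl2 shRNA samples, against 34.6, 29.2 and 61.4 in the mismatch control samples (log2 fold change 0.24, SE 0.30, limma adjusted p = 0.691). Both probe sets had an exact two-sided permutation p of 0.5.

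**Figure D3:**
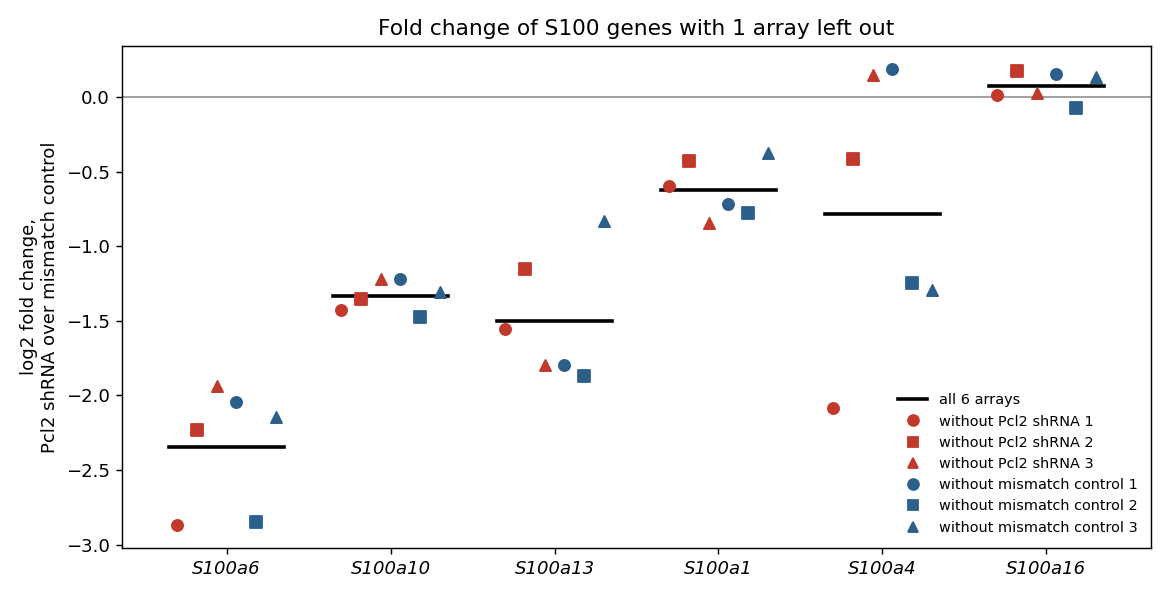
Log2 fold change of Pcl2 shRNA over mismatch control for each measured S100 gene with all 6 arrays (black bar) and with 1 array left out (red, a Pcl2 shRNA array; blue, a mismatch control array; the symbol gives the sample number), keeping the same probe set. S100a6 stays between -2.87 and -1.94 and S100a10 between -1.48 and -1.22, while S100a4 runs from -2.09 to 0.19.

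Among the other S100 genes listed, 8 of 10 had a probe set naming them alone and 2 passed the filter on low signals, neither of them called by limma (0 had an unadjusted p below 0.05). S100a14, S100a8, S100a9, S100b and S100g were at or below background on all 6 arrays. S100a5, the gene between S100a4 and S100a6, averaged 25.2 ± 1.51 in the Pcl2 shRNA cells and 27.4 ± 8.36 in the mismatch control cells (SD, n = 3 each; limma adjusted p = 0.898). S100a3, which was too dim to be tested, gave 3.66, 10.1 and 3.77 in the Pcl2 shRNA samples, all at or below background, against 27.9, 12.3 and 24.3 in the mismatch control samples. S100pbp, which encodes a binding protein of S100P in human cells and is no S100 protein itself, averaged 499.5 ± 84.5 in the Pcl2 shRNA cells and 413 ± 51.2 in the mismatch control cells (SD, n = 3 each; limma adjusted p = 0.413). Of 7 S100-fused genes, which join an S100 domain to the long repeats of skin proteins such as filaggrin, 5 had a probe set, 4 of them were at or below background on all arrays and Rptn did not pass (limma adjusted p = 0.779).

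Other genes around the members on chromosome 3 were not called in the fit on the groups. Of 106 annotated genes between the outermost members or within 10 genes outside them, leaving out S100 genes, 46 had a probe set and 21 were tested, none of them called by limma. An unadjusted p below 0.05 was found for 1 of the 21. Their median log2 fold change was 0.01. With the sample number as a block 3 were higher (Gatad2b, Ilf2 and Snapin) and 1 lower (Lce1h), where 9.97% of all genes were called higher and 13.8% lower. Chtop, which encodes a chromatin-associated target of an arginine methyltransferase, averaged 1362 ± 120 in the Pcl2 shRNA cells and 1468 ± 174 in the mismatch control cells (SD, n = 3 each; limma adjusted p = 0.729). Ilf2, a subunit of a nuclear factor that binds double-stranded RNA, had a log2 fold change of 0.42 (limma adjusted p = 0.203), which passed with the sample number as a block (0.0345).

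Several proteins that S100 members bind were lower at the transcript level. Of 18 listed partners 12 were tested, 5 fell, none rose and 7 did not pass, where 8.16% of all genes were called lower. The median log2 fold change was -0.85 over the partners and 0.02 over all genes. The 5 were Anxa5, Ahnak, Anxa1, Anxa2 and Ppfibp1 (-0.76, limma adjusted p = 0.0287), the last one named because it completes the count. The count was 3 without Pcl2 shRNA sample 2 and 8 without mismatch control sample 2 or with the sample number as a block, a fit that called 13.8% of all genes lower. Anxa5, an annexin that binds exposed phosphatidylserine, gave 113, 99.9 and 119 in the Pcl2 shRNA samples, against 1089, 351 and 571 in the mismatch control samples. It fell by 2.38 on the log2 scale (SE 0.33, limma adjusted p = 0.00146), with every Pcl2 shRNA sample far below every control sample.

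Anxa2, the annexin that S100A10 holds in a tetramer, had signals of 686, 569 and 587 in the Pcl2 shRNA samples, against 1653, 886 and 1386 in the mismatch control samples. The groups were separate, and Anxa2 fell by 1.04 on the log2 scale (SE 0.22, limma adjusted p = 0.0121), with a dim second probe set at -0.37 that did not pass. Anxa1, the annexin bound by S100A11, gave 669, 332 and 193 in the Pcl2 shRNA samples, against 2032, 800.4 and 1739 in the mismatch control samples. Its samples took the same order as those of S100a6 in each group, and it fell by 1.99 on the log2 scale (SE 0.43, limma adjusted p = 0.0136). Ahnak, a very large scaffold protein that docks on the S100A10 and annexin A2 complex, gave 225, 194 and 164 in the Pcl2 shRNA samples, against 916, 532 and 1174 in the mismatch control samples. It fell by 2.07 on the log2 scale (SE 0.27, limma adjusted p = 0.000966).

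Partners of the other members did not all move that way. Cacybp, the partner named after S100A6, averaged 3848 ± 634 in the Pcl2 shRNA cells and 3209 ± 412 in the mismatch control cells (SD, n = 3 each; log2 fold change 0.26, limma adjusted p = 0.388). Fgf1, the growth factor exported with S100A13, averaged 53.1 ± 15.2 in the Pcl2 shRNA cells and 47.7 ± 4.32 in the mismatch control cells (SD, n = 3 each; limma adjusted p = 0.842). Myh9, the myosin heavy chain bound by S100A4, averaged 2328 ± 415 in the Pcl2 shRNA cells and 3653 ± 816 in the mismatch control cells by its brightest probe set (SD, n = 3 each), which did not pass (log2 fold change -0.64, SE 0.20, limma adjusted p = 0.0611). Samples of the same number differed by -0.38, -0.44 and -1.10, and with the number as a block Myh9 fell (limma adjusted p = 0.0176). Of its 5 tested probe sets 3 were called lower with every probe set as a feature, with log2 fold changes of -1.62, -1.38 and -1.29, so the Myh9 probe sets differ in their calls.

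Other EF-hand genes, a list of calcium-binding proteins outside the S100 family, were lower in 8 of 41 tested cases and higher in 1 (Tesc, log2 fold change 1.57, limma adjusted p = 0.00467), and 32 did not pass, where 8.16% of all genes were called lower and 4.46% higher. Their median was -0.24. Capn2, the large subunit of a calcium-activated protease, averaged 145 ± 47.0 in the Pcl2 shRNA cells and 763 ± 333 in the mismatch control cells (SD, n = 3 each) and fell by 2.28 on the log2 scale (SE 0.34, limma adjusted p = 0.00193). Rcn2, a calcium-binding protein of the endoplasmic reticulum, fell by 1.27 (SE 0.18, limma adjusted p = 0.00156). Pls3, an actin-bundling plastin, fell by 1.18 and Ncs1, a neuronal calcium sensor, by 1.21. A dimmer Ncs1 probe set had -0.38 with every probe set as a feature and did not pass (limma adjusted p = 0.467). The count of higher genes was 0 without probe sets prone to cross-hybridise.

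**Figure D4:**
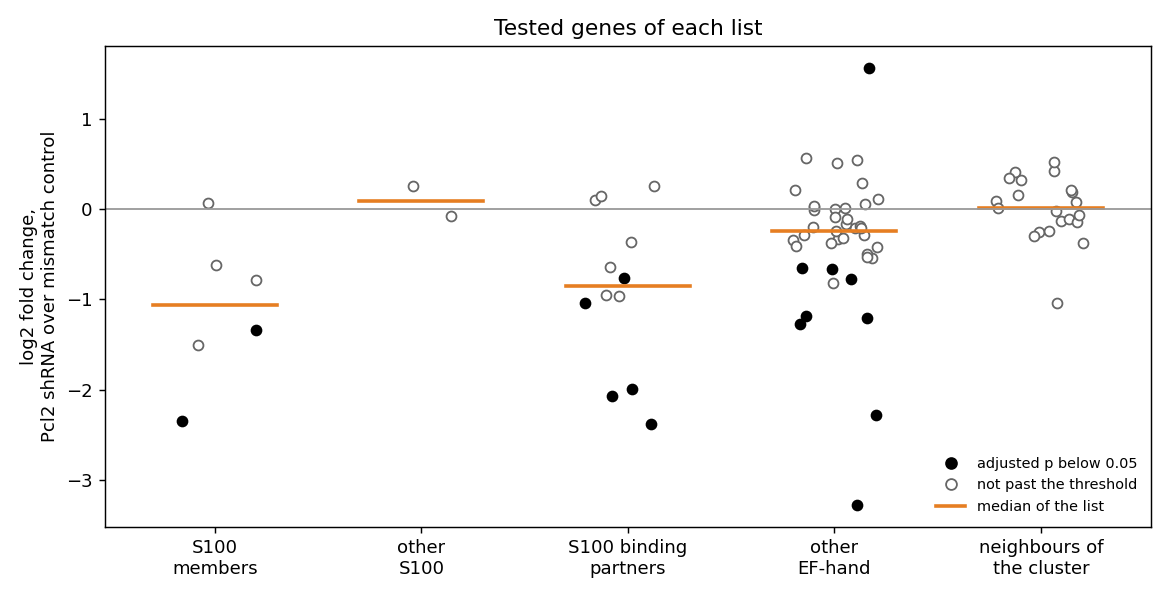
Log2 fold change of Pcl2 shRNA over mismatch control for each tested gene of 5 lists. Filled points passed an adjusted p below 0.05, open points did not, and orange bars are list medians, at -1.06 for the S100 members, 0.10 for other S100 genes, -0.85 for binding partners, -0.24 for other EF-hand genes and 0.01 for the neighbours of the cluster.

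The genes whose levels followed the members most closely over the 6 arrays were found as a description, by the root-mean-square difference of log2 values after centring each gene on its mean. The groups differ for all of them, so the closeness reflects the group difference as well as the single samples. Nearest to S100a10 were Mmp14, a membrane-bound metalloproteinase (0.0921), Ier3, an immediate early gene (0.0970), and Emp3, a membrane protein (0.103). Nearest to S100a6 were Cdx2, a trophectoderm and intestinal transcription factor (0.208), Anxa1 (0.215) and Id2, an inhibitor of helix-loop-helix factors (0.239). Cdx2 was at or below background in all 3 Pcl2 shRNA samples, so its distance and its place before Anxa1 are not well measured.

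Markers of other cell types were measured beside these genes. Of 10 tested fibroblast markers none passed by limma (1 had an unadjusted p below 0.05) and 4 were lower with the sample number as a block (Col1a1, Col3a1, Col5a2 and Vim), where 13.8% of all genes were. Their median log2 fold change was -0.41. Their summed signal was 5266 to 5419 in the Pcl2 shRNA samples and 4875 to 6737 in the mismatch control samples, with Dcn and Lum at or below background on all arrays. Most of this sum came from Fn1 and Vim and says little about the dimmer markers. Fn1 averaged 3240 in the Pcl2 shRNA cells and 2671 in the mismatch control cells, and Vim 1600 and 2190. A dimmer Fn1 probe set was called higher with every probe set as a feature (0.77, limma adjusted p = 0.0416). Of 9 simple epithelium markers 7 fell in the fit on the groups, where 8.16% of all genes tested were called lower. The same share stands beside the counts of the lists that follow. The summed signal of the epithelium markers was 5621 to 7535 in the Pcl2 shRNA samples and 14780.0 to 19910 in the mismatch control samples. Of 6 tested smooth muscle markers 5 fell, among them Myl9, which is also counted in the other EF-hand list. The summed signal was 519 to 1006 in the Pcl2 shRNA samples and 3961 to 5586 in the mismatch control samples, with Myh11 at or below background on all arrays. Primitive endoderm markers fell in 4 of 7 tested cases, with a sum of 947 to 1094 in the Pcl2 shRNA samples and 1604 to 2380.4 in the mismatch control samples. Trophectoderm markers fell in 2 of 6 (Cdx2 and Krt7), and Krt7 is also in the simple epithelium list. An unadjusted limma p below 0.05, in either direction, was found for 5 of the 6. The same count was 8 of 9 for simple epithelium, 5 of 6 for smooth muscle and 4 of 7 for primitive endoderm markers. For embryonic stem cell markers it was 7 of 10 and for S100 binding partners 8 of 12. The S100 members had 3 of 6 and the other EF-hand genes 13 of 41. No share over all genes is given for such counts, so they stand as a description. With the sample number as a block Tfap2c was also called, as higher (log2 fold change 0.51). The trophectoderm markers had a median log2 fold change of -0.76, with a sum of 902 to 1279 in the Pcl2 shRNA samples and 849 to 1388 in the mismatch control samples and Gata3 at or below background on all arrays. None of 3 tested keratinocyte markers passed by limma (0 had an unadjusted p below 0.05), with a sum of 185 to 221 in the Pcl2 shRNA samples and 186 to 269 in the mismatch control samples and Ivl and Trp63 at or below background on all arrays. The 10 embryonic stem cell markers summed to 37643 to 49120 in the Pcl2 shRNA samples and 22489 to 28298 in the mismatch control samples. The part of these marker changes in the S100 results was not tested.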

How the data were processed

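Total RNA of 6 cultures was hybridised to Mouse Genome 430 2.0 arrays, per the labels' protocols. Each array comes with 1 deposited intensity for every probe set. It is a linear MAS5 signal, as the submitters' processing notes say, and the labels name GCOS 1.4. Trimmed by 2% at both ends, the mean signal is 150.001 on every array, and this scaling was kept. Further MAS5 settings and detection calls were not used here.

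Of 45101 probe sets, 34945 named 1 gene, 932 several and 9160 none, and 64 were controls. Symbols were updated through the RefSeq table of GRCm38.p6, which held 34741 of the 34945. The tests used log2(signal + 7). The added 7 is the 20th percentile over all arrays. Probe sets that named 1 gene were tested where their mean log2 value reached the 40th percentile, and the brightest represented each of 13095 genes. Under R 4.3.3, limma 3.58.1 (lmFit, then eBayes allowing a trend) gave two-sided tests with Benjamini-Hochberg adjustment over all genes, and a second fit took every tested probe set as a feature. Single probe sets were also tested by exact permutation over 20 relabellings. Background was 20.3, the brightest signal among 27 control probe sets for bacterial genes that were not spiked in, a level chosen after the data were seen. The number of arrays limits the precision. Motifs were searched in RefSeq promoters of 300 bases. Recovery of known changes was tested on simulated data.

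The labels do not say that a sample number marks a shared culture or day. Deviations from the group means correlated at 0.25 to 0.40 for samples of the same number and -0.38 to -0.00115 for other pairs. The main fit compared the groups without pairing, and it was repeated with the number as a block. Pairing by number rests on the data only. Arrays of 1 group correlated at 0.961 to 0.977 (log2 values), and arrays of different groups at 0.907 to 0.943.

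The members, the gene lists and the tests were chosen with earlier results of these data known. Named genes were all members, Mtf2, for each list up to 4 called genes of lowest p, or its 2 brightest genes where none was called, 6 set binding partners and the 3 genes nearest to each of 2 members. Ppfibp1, Tesc, the neighbours, fibroblast and trophectoderm markers called with the block, and all measured genes of the other S100 list were named beyond that rule.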

Additional observations from a re-analysis of the deposited data

How the results depend on the processing

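S100a6 kept its call and direction under all alternatives run, with a log2 fold change between -2.87 and -1.94. S100a10 kept its direction under all of them, and lost its call in 1, without mismatch control replicate 1 where another probe set represented it. S100a13 passed with the replicate block and with array weights (-1.74, adjusted p = 0.0252), and S100a1 with the replicate block. Leaving out single arrays gave -2.09 to 0.19 for S100a4, with 0.15 without Pcl2 shRNA replicate 3, and -0.071 to 0.17 for S100a16, so both changed sign, and S100a16 was -0.056 with array weights. Without single arrays Mtf2 lay between -0.84 and -0.63, and it was -0.65 without mismatch control replicate 1 with its probe set kept and -0.53 with the mean of its probe sets. In the fit with every probe set as a feature, a dim Mtf2 probe set had 0.25 (SE 0.23, limma adjusted p = 0.573). The other Mtf2 probe sets lay between -0.75 and -0.68 in that fit. The mean of the Mtf2 probe sets includes the dim one. The cause of the changes in Mtf2 without single arrays was not tested. With the replicate block 4 members were called lower, against 2 without it. Without single arrays 1 to 2 members were called lower.

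Over the whole table the replicate block gave 3113 genes, 1305 higher and 1808 lower, and array weights gave 885 higher. Without single arrays the count was 979 to 1598, with 261 to 577 higher, and 952 to 1606 with probe sets kept, with 263 or more higher and 689 to 1038 lower, and the lowest counts were those without Pcl2 shRNA replicate 2. The alternatives in which each gene keeps the probe set chosen with all arrays, and the floor at background, were added after the data were seen. S100a4 is the member that low signal limits most, since 2 of its 6 arrays lay at or below background.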

Other observations

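The probe set 1460351_at is annotated to S100a11, the pseudogene S100a11-ps and Gm12854 together, so its signal cannot be given to any one of them and it entered no test across genes. It gave 976, 854 and 938 in Pcl2 shRNA samples 1 to 3, against 2923, 1578 and 2799 in mismatch control samples 1 to 3. The groups did not overlap, and the mean was 923 ± 62.4 in the Pcl2 shRNA cells and 2434 ± 743 in the mismatch control cells (SD, n = 3 each; exact two-sided permutation p = 0.1, the smallest that 3 against 3 arrays allow). Mismatch control sample 2 was the lowest of its group, as it was for every measured member except S100a4. The same held for Anxa1, Anxa2, Anxa5 and Ahnak, so this order is not particular to the probe set.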
